A study of Mus musculus with 778 samples.

Results

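Antioxidant enzymes remove superoxide and peroxides, the reactive by-products of respiration, and keep protein thiols reduced. The 10 genes described here are the superoxide dismutases *Sod1* and *Sod2*, catalase (*Cat*), the glutathione peroxidases *Gpx1* and *Gpx4*, the peroxiredoxins *Prdx1*, *Prdx2* and *Prdx3*, thioredoxin (*Txn1*) and thioredoxin reductase (*Txnrd1*). They were chosen by name from the 23201 genes of a table of unique molecular identifiers (UMIs, random tags by which amplified copies of 1 cDNA molecule are counted once), and all 10 were found in it. The table held 223 single wild type ICR mouse oocytes of 5 growth stages, namely 46 non-growing oocytes (NGO, diameter under 20 μm), 51 GO1 (30 to 45 μm), 26 GO2 (50 to 55 μm), 44 GO3 (60 to 65 μm) and 56 fully-grown oocytes (FGO, over 70 μm). Mice were 3 to 4 days of age for NGO and 3 to 4 weeks of age for all later stages, so growth stage and age of the mouse cannot be told apart wherever NGO is compared.

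Superoxide dismutases turn superoxide into hydrogen peroxide, SOD1 mainly in the cytosol and SOD2 in mitochondria. Hydrogen peroxide is then removed by catalase in peroxisomes, by glutathione peroxidases at the expense of glutathione, and by peroxiredoxins at the expense of thioredoxin, which thioredoxin reductase recharges with NADPH. GPX4 also reduces lipid peroxides within membranes. An oocyte rests for long periods and supplies the early embryo with its mitochondria and much of its protein, so these enzymes are often studied in it.

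Levels are counts per 1000000 UMIs (CPM), taken from the pooled UMIs of all cells of a stage. Cells could not be tied to their libraries, so each stage was 1 pooled sample without replicates. No test between stages was made, and the 95% intervals given here cover counting error only. The verbs rose and fell are kept for genes with a difference of 2-fold or more and 10 CPM or more in the stage where they were higher. A level in CPM is relative to all other transcripts, so fewer copies per oocyte and more of other RNA cannot be told apart. From added spike-in RNA, the authors reported a higher relative mRNA abundance in GO1 than in NGO oocytes. Its part in the differences described here was not tested. Stage totals ranged from 24976634 to 64311908 UMIs, and the median cell had 540432 UMIs in NGO, 110146 in GO1 and 676786 to 972294 in the later stages. Sums of GO1 and GO2 rest on few cells, since their 10 deepest oocytes supplied 80.4% and 73.2% of the UMIs. All 10 oocyte markers of the list used (among them *Ddx4*, *Zp3* and *Gdf9*) had at least 10 CPM in every stage.

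The genes of *Gpx1*, *Gpx4* and *Txnrd1* share a feature that sets how their mRNA is read. Each codes for an enzyme with selenocysteine, the selenium-containing amino acid, at a TGA codon that would otherwise be a stop. In the GENCODE vM1 annotation of NCBIM37 (the build also known as mm9), these 3 members had a TGA codon inside the reading frame and the other 7 had none. The coding bases around it are shown here, 5′ to 3′ on the plus strand, with the TGA in capitals, because *Gpx1* and *Gpx4* are among the 4 members that fell from NGO to GO1 and *Txnrd1* is not.
*Gpx1*, exon 1 of 2, chr9:108241770-108241799: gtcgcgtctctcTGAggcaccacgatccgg
*Gpx4*, exon 3 of 7, chr10:79517470-79517499: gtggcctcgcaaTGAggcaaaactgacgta
*Txnrd1*, exon 15 of 15, chr10:82358761-82358790: gacatcctccagtctggctgcTGAggttaa
Counting the stop, the TGA was codon 47 of 202 in *Gpx1*. In *Txnrd1* it was codon 498 of 500, directly before the last amino acid.

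Transcript levels of all 10 members were highest in NGO. From NGO to GO1, *Cat*, *Gpx1*, *Gpx4* and *Sod2* fell, and no member rose. Over all 8527 genes that reached 10 CPM in NGO or GO1, 25.7% fell and 20.6% rose by the same rule, so a change of this size was common between these stages. The balance of all genes depended on the scaling, with 1936 lower and 1946 higher by size factors of DESeq2 and 1797 lower and 2043 higher by TMM factors of edgeR. The median log2 ratio of GO1 over NGO was -0.62 for the 10 members and -0.15 for all genes tested. The depth of the cells moved with this step (medians of 540432 and 110146 UMIs), as did the age of the mice, and their part in it was not tested.

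**Figure D1:**
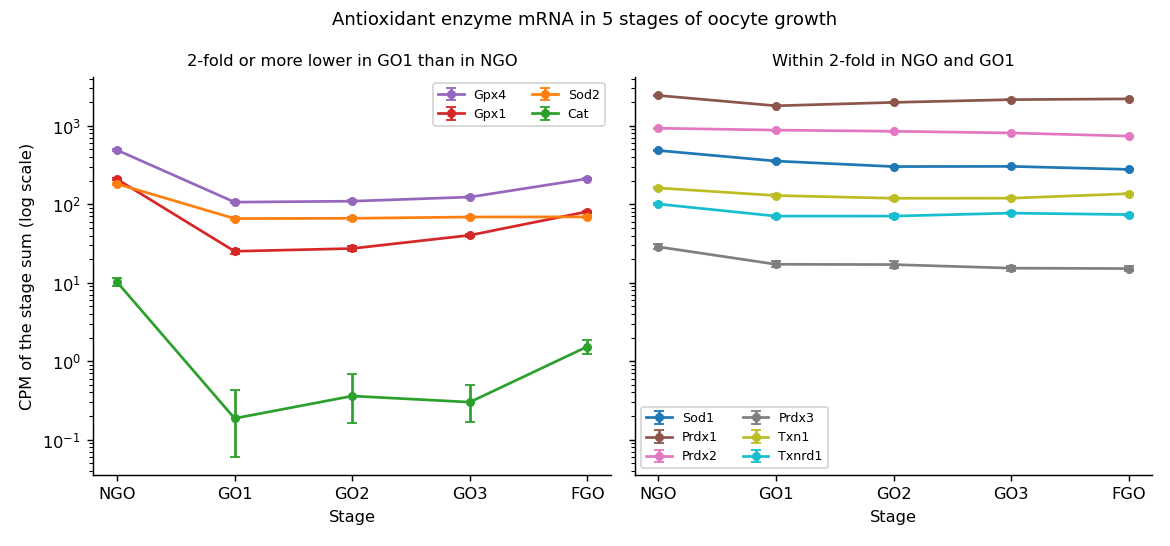
CPM of the summed UMIs of each stage (log axis) for the 4 members that were at least 2-fold lower in GO1 than in NGO (left) and the other 6 (right). Bars are 95% counting intervals, most of them smaller than the points; *Cat* drops from 10.2 CPM in NGO to 0.187 in GO1, whereas *Prdx2* stays between 932 and 741 CPM.

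*Gpx1* (NCBIM37 chr9:108241607-108242671, plus strand), the main cytosolic glutathione peroxidase, had 209 CPM in NGO, and then 25.2, 27.3, 40.3 and 80.8 CPM in the order of growth. It fell 8.30-fold from NGO to GO1 (95% interval 7.66 to 9.01), a log2 ratio of -3.05, against -3.67 without the 10 deepest cells of each stage and -3.72 in cells thinned to 20000 UMIs. Among single cells, the lowest, median and highest values were 75.7, 210.7 and 361 CPM in NGO and 0, 21.6 and 89.8 CPM in GO1. The 2 sets of cells hardly overlapped, since 49 of the 51 GO1 cells lay below the lowest NGO cell and 45 of the 46 NGO cells above the highest GO1 cell. How many of all genes parted as far was not counted. In cells thinned to 20000 UMIs the ranges met, with 1 to 11 *Gpx1* UMIs in NGO (median 4) and 0 to 2 in GO1 (median 0). Later cells ran from 13.4 to 87.2 CPM in GO3 (median 40.4) and from 0 to 177 CPM in FGO (median 79.1). From GO3 to FGO, *Gpx1* rose 2.002-fold (95% interval 1.90 to 2.11), a value on the limit itself. It was short of the limit with either other scaling (size factors of DESeq2 or TMM factors of edgeR), as the mean over cells, in thinned cells and without the 10 deepest cells of each stage.

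*Gpx4* (chr10:79509911-79519184, plus strand), the lipid peroxide reductase, had 492 CPM in NGO, dropped to 106.6 in GO1 and 109.6 in GO2, and stood at 123.7 in GO3 and 212 in FGO. From NGO to GO1 it fell 4.61-fold (95% interval 4.43 to 4.81). Its single NGO cells ran from 333 CPM through a median of 490.3 to 861, and its GO1 cells from 0 through 39.9 to 226. All 51 GO1 cells thus lay below all 46 NGO cells, which held for 0.915% of the genes tested in this step. When every cell was thinned to 20000 UMIs, the ranges met, with 3 to 18 *Gpx4* UMIs in NGO cells (median 10) and 0 to 6 in GO1 cells (median 1). The level in GO1 differed with depth, at 121.3 CPM in the 10 deepest GO1 cells and 46.04 CPM in the others. Without the 10 deepest cells of each stage the log2 ratio of GO1 over NGO was -3.50, against -2.21 in the full sums.

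**Figure D2:**
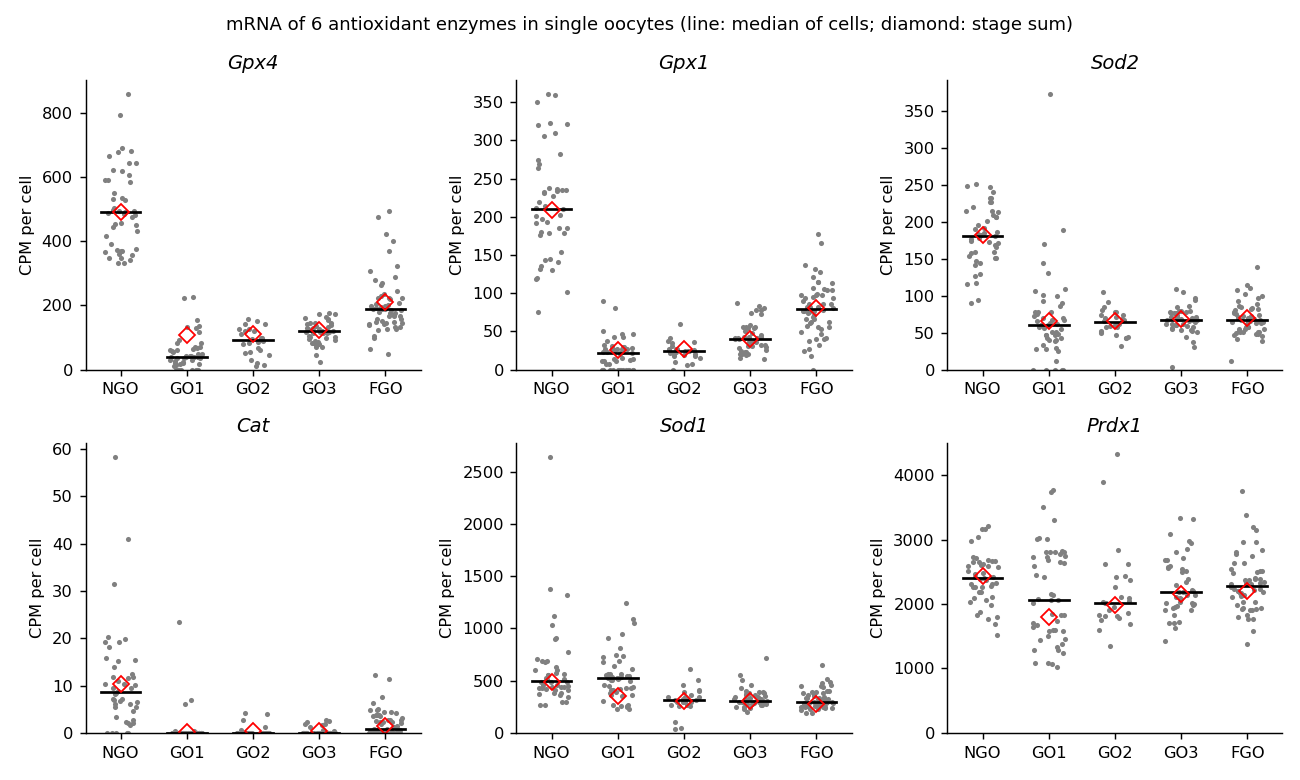
CPM in each single oocyte (grey points) for 6 members by stage, with the median of the cells (line) and the CPM of the stage sum (red diamond). For *Gpx4* the NGO cells (333 to 861 CPM) and the GO1 cells (0 to 226 CPM) do not meet, while those of *Prdx1* share most of their range in all 5 stages.

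*Sod2* (chr17:13200705-13210985, plus strand), the mitochondrial dismutase, had 182 CPM in NGO and 65.8, 66.3, 68.9 and 69.2 CPM in GO1, GO2, GO3 and FGO. It fell 2.77-fold from NGO to GO1 (95% interval 2.62 to 2.93) and then stayed between 65.8 and 69.2 CPM up to FGO. Under 7 alternatives of scaling and weighting, its log2 ratio in the later steps lay between -0.09 and 0.27. NGO cells ran from 90.1 to 251 CPM (median 181) and GO1 cells from 0 to 374 CPM (median 60.9). Here the ranges overlapped, with 40 of the 51 GO1 cells below the lowest NGO cell. A single GO1 cell, at 374 CPM, was above all NGO cells. The share of all genes that parted as far was not counted. In thinned cells the lowest and highest *Sod2* counts were 0 and 8 UMIs in both stages. The medians were 4 UMIs in NGO and 1 in GO1.

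*Cat* (chr2:103294006-103325317, minus strand) had 10.2 CPM in NGO and 0.187, 0.360, 0.301 and 1.54 CPM in the stages that follow, near the lower limit of the measurement from GO1 to GO3. These levels rest on 258, 5, 9, 15 and 99 UMIs. In the sums *Cat* was 54.8-fold lower in GO1 than in NGO, with a wide 95% interval of 23.2 to 170.2. This size differed with the weight given to deep cells: the log2 ratio was -5.78 in the sums, -3.97 without the 10 deepest cells, -3.89 as the mean over cells and -3.15 in thinned cells. NGO stood just above the 10 CPM limit, so *Cat* did not pass the rule in this step with the other scalings, in thinned cells, without the 10 deepest cells or at a limit of 50 CPM. No *Cat* UMI was found in 46 of 51 GO1 cells, against 5 of 46 NGO cells. At the median depth of a GO1 cell 1 UMI already amounts to 9.08 CPM (1.85 in NGO), and after thinning to 20000 UMIs *Cat* was seen in 6 of 46 NGO cells and 1 of 51 GO1 cells, too few to compare cell by cell. No other cell type is in the table to show what share free RNA alone would give. From GO3 to FGO the sum was 5.11-fold higher (95% interval 2.95 to 9.48), below the level limit, with *Cat* UMIs in 10 of 44 GO3 cells and 35 of 56 FGO cells.

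The remaining 6 members differed less than 2-fold between any 2 of the compared stages. *Prdx1* (chr4:116358149-116373427, plus strand), a cytosolic peroxiredoxin, stood at 2438, 1801, 1991, 2159 and 2206 CPM in the 5 stages and ranked among the 52 genes with the highest CPM in each stage. Its cells ran from 1513 to 3214 CPM in NGO (median 2399) and from 1016 to 3774 in GO1 (median 2066). Its log2 ratio of GO1 over NGO was -0.44 in the sums and -0.01 without the 10 deepest cells, which had 1649 CPM in GO1 against 2428 in the other cells. *Prdx2* (chr8:87493486-87498733, plus strand), a close relative in the cytosol, had 932, 883, 853, 812 and 741 CPM. Single *Prdx2* cells ran from 542 to 1185 CPM in NGO, from 277 to 1674 in GO1 and from 338 to 1002.5 in FGO, with medians of 925, 951 and 716 CPM. The NGO range of *Prdx2* thus lay within that of GO1. The order of *Prdx2* in NGO and GO1 depended on the setting, with a log2 ratio of GO1 over NGO of -0.08 in the sums and -0.14 to 0.24 over 7 alternatives, 5 of them above 0. An exon of *Prdx2* overlaps *Rnaseh2a* on the opposite strand (80.7 CPM in NGO and 51.5 in GO1), and reads there cannot be assigned to either gene without knowing whether counting used the strand. *Prdx3* (chr19:60939954-60950459, minus strand), the mitochondrial peroxiredoxin, had 28.7, 17.2, 17.1, 15.4 and 15.2 CPM. *Prdx3* was 1.67-fold lower in GO1 than in NGO in the sums (95% interval 1.48 to 1.88), and past 2-fold without the 10 deepest cells (log2 ratio -1.54), as the mean over cells (-1.41) and in thinned cells. The 10 deepest GO1 cells had 19.01 CPM of *Prdx3* and the other cells 9.74.

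*Sod1* (chr16:90220987-90226567, plus strand), the cytosolic copper-zinc dismutase, had 485, 356, 303, 304 and 279 CPM from the smallest to the largest oocytes. In the sums it was 1.36-fold lower in GO1 than in NGO, whereas the median cell had 498 CPM in NGO and 525 in GO1. Deep cells carried less *Sod1* in each of the 5 stages. Its CPM was 394 in the 10 deepest NGO cells against 553 in the others, and 319 against 508 in GO1. The corresponding pairs were 287 and 346 in GO2, 288 and 319 in GO3, and 249 and 308 in FGO. A single NGO cell reached 2642 CPM, and the lowest had 264 CPM. From NGO to FGO, which have more similar depths, *Sod1* was 1.74-fold lower (95% interval 1.70 to 1.78), and 54 of 56 FGO cells lay below the NGO median.

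*Txn1* (chr4:57956245-57969283, minus strand) stood at 161, 129.4, 119.4, 119.7 and 136.5 CPM in the same order. *Txnrd1* (chr10:82296696-82360469, plus strand) had 100.8, 70.7, 70.8, 77.3 and 73.95 CPM. The ratio of NGO over GO1 was 1.25 for *Txn1* (95% interval 1.19 to 1.31) and 1.42 for *Txnrd1* (95% interval 1.34 to 1.51). Cells of *Txn1* ran from 54.6 to 254 CPM in NGO (median 152.8) and from 0 to 330.1 in GO1 (median 132.5). Those of *Txnrd1* ran from 35.9 to 208 (median 102.5) and from 0 to 224 (median 54.7). The ranges of both genes overlapped, but 45 of the 51 GO1 cells lay below the NGO median for *Txnrd1* and 33 for *Txn1*. Below the lowest NGO cell lay 16 GO1 cells for *Txnrd1* and 6 for *Txn1*. Thioredoxin and its reductase were the closest pair but for *Sod1* and *Prdx3* when profiles were compared by the root mean square difference of log2(CPM + 1), each centred on its mean over the 5 stages (0.0996). The distance was 0.0967 for *Sod1* and *Prdx3* and 0.317 for *Gpx1* and *Gpx4*, and the farthest pair was *Cat* and *Prdx2* (1.18). The 5 points of a profile share cells and totals, so these distances are descriptions. Without the 10 deepest cells the distance of *Sod1* and *Prdx3* was 0.50. In that setting *Txn1* and *Txnrd1* also parted, with log2 ratios of -0.04 and -0.79 for GO1 over NGO. For GO2 over GO1 the ratios were -0.40 and 0.48.

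**Figure D3:**
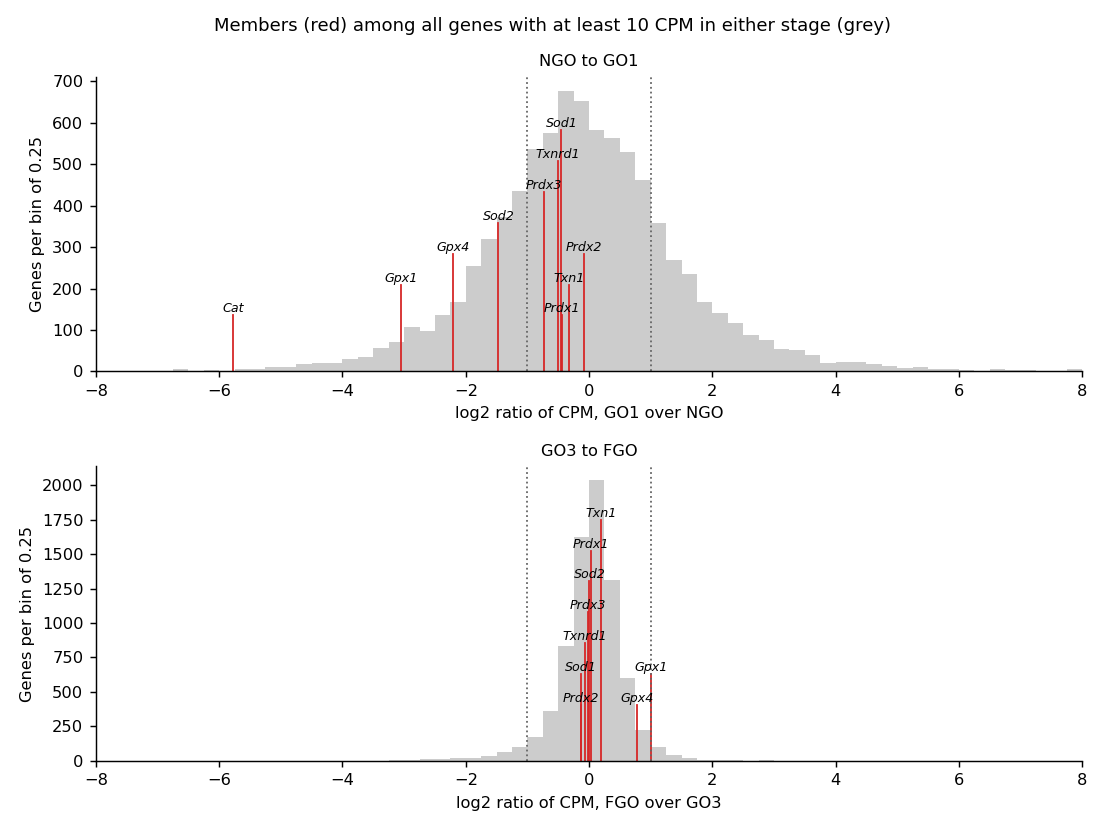
Histogram of log2 ratios of CPM for all genes that reached 10 CPM in either stage (grey, bins of 0.25) with the members as red lines, for NGO to GO1 (top, 8527 genes) and GO3 to FGO (bottom, 7622 genes). Dotted lines mark 2-fold; *Cat*, *Gpx1*, *Gpx4* and *Sod2* lie beyond it on the left in the upper panel and *Gpx1* touches it on the right in the lower panel.

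After GO1 few members passed the rule. From GO1 to GO2 no member was called, with 9 of the 10 at 10 CPM or more, against 0.109% of 7356 genes that rose and 3.03% that fell. Their median log2 ratio was 0.00, and that of all genes -0.11. From GO2 to GO3 again none was called, against 3.34% of 7334 genes that rose and 1.01% that fell. Without the 10 deepest cells of each stage, *Gpx4* was past the limit from GO1 to GO2 (log2 ratio 1.01) and *Gpx1* from GO2 to GO3 (1.06), both higher in the larger oocytes. In the full sums the corresponding log2 ratios were 0.04 and 0.56.

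From GO3 to FGO, 1 of the 9 members at 10 CPM or more rose, *Gpx1*, and none fell. Of the 7622 genes tested 2.41% rose and 3.54% fell. *Gpx4* was 1.71-fold higher (95% interval 1.66 to 1.77), and 52 of the 56 FGO cells lay at or above the GO3 median. The 2 glutathione peroxidases stood above 97.6% (*Gpx1*) and 95.03% (*Gpx4*) of the genes tested in this step, and the other 7 members within a log2 ratio of -0.13 to 0.19. Summed over both genes, glutathione peroxidase mRNA had 701 CPM in NGO, between 131.8 and 164 CPM in the 3 growing stages, and 293 in FGO, so FGO was below NGO.

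Between the ends of the series, NGO and FGO, the same 4 members that fell from NGO to GO1 were called, and again none rose. Of 8132 genes, 16% fell and 11.3% rose. *Cat* was 6.65-fold lower in FGO (95% interval 5.26 to 8.47), a log2 ratio of -2.73, against -3.46 in 26 cells of each stage, -2.12 without the 10 deepest cells and -0.96 in thinned cells. In the last 2 of these, with either other scaling and at 50 CPM it was not called. *Sod2* was lower 2.63-fold (2.53 to 2.75), *Gpx1* 2.59-fold (2.49 to 2.69) and *Gpx4* 2.32-fold (2.26 to 2.38). All 56 FGO cells were below the NGO median for *Sod2* and *Gpx1*, and 51 of 56 were below the lowest NGO cell for *Gpx4*. How many of all genes parted as far from NGO to FGO was not counted. The median log2 ratio of the members was -0.86 and that of all genes -0.12. *Prdx1* was nearly level, at 1.11-fold lower in FGO (95% interval 1.09 to 1.12), and with TMM factors it was slightly higher in FGO (log2 ratio 0.03).

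The order of the members was read both from CPM, in which each UMI stands for 1 molecule, and per kilobase of the longest GENCODE transcript, which applies only if tags scale with length. *Prdx1* led in every stage on both scales, with 1063 CPM per kb in NGO, 785 in GO1 and 962 in FGO, and *Prdx3* and *Cat* came last on both, with 10.3 and 0.589 CPM per kb in FGO. The next places depended on the scale. In NGO, CPM put *Prdx2* (932 CPM) above *Gpx4* and *Sod1*, which were within counting error of each other (492 and 485 CPM), whereas per kilobase *Sod1* stood above *Prdx2* and *Gpx4* (751, 578 and 494 CPM per kb). *Gpx4* was above *Txn1* in NGO and FGO and below it in GO1 on both scales, with 107.1 against 123.1 CPM per kb in GO1 and 213 against 129.9 in FGO. *Prdx1* made up 48.4%, 52.1% and 57.8% of the members' UMIs in NGO, GO1 and FGO, and 31.4%, 35.8% and 41.1% of their per-kilobase sum. The summed CPM of the 10 members was 5040.02 in NGO and 3455, 3557, 3721 and 3815 in the later stages. Without *Prdx1* and *Prdx2*, the other 8 summed to 1669, 771, 714, 750.0 and 868 CPM in the same order.

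Markers of other cells were low, and their part in the results was not tested. The 10 oocyte markers summed to 25513 CPM in NGO, 13578 in GO1 and 14632 to 20429 CPM in the later stages. The sum of 11 granulosa cell genes was 15.99 CPM in NGO, 44.6 in GO1 and 20.8 to 36.8 in the later stages, most of it *Nr5a2*, *Kitl* and *Cyp19a1*. From NGO to GO1, *Cyp19a1* went from 1.11 to 16.3 CPM, *Nr5a2* from 6.91 to 14.5, *Kitl* from 1.35 to 5.49 and *Inha* from 1.47 to 3.59. In the same step *Fshr* went from 2.82 to 2.32 CPM and *Inhba* from 1.67 to 0.785. *Foxl2* and *Amh* were at 0.233 CPM or less in every stage. Of 3 endothelial genes only *Pecam1* was at a level above 2 CPM (4.60 in NGO, 37.6 in GO1), and *Cdh5* was at 0 in 4 of the stages. The 7 genes of stroma and theca summed to 8.06 CPM in NGO and 0.721 or less later, with a single NGO cell at 251 CPM. White blood cell genes summed to 4.88 CPM in NGO and 1.68 to 2.25 CPM later, and the 4 haemoglobin genes were at 0. Leaving out the 6 cells with at least 10 CPM of stroma genes, a setting chosen after seeing the data, gave the same 4, 0, 0, 1 and 4 called members in the 5 comparisons.

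The members belong to a wider network, described by a list of 50 other redox genes, of which 36 reached 10 CPM in NGO or GO1. From NGO to GO1, 12 of these fell and 8 rose, with a median log2 ratio of -0.40, where 25.7% and 20.6% of all genes did so. Counts of the small groups below are to be read against the same shares. With size factors of DESeq2 or TMM factors of edgeR, 10 fell and 9 rose, and without the 10 deepest cells of each stage 20 fell and 6 rose. In the glutathione group, 2 of 5 genes at the level limit fell (*Gsr* and *Gss*) and 2 rose. *Gsr*, glutathione reductase, went from 30.2 CPM in NGO to 1.61 in GO1 (18.8-fold, 95% interval 13.8 to 26.2) and had 5.49 CPM in FGO. *Gss*, glutathione synthetase, fell from 16.03 to 6.20 CPM, and *Pgd*, an NADPH-supplying enzyme of the pentose phosphate pathway, from 33.5 to 6.47 CPM. Of the 5 NADPH genes at the level limit 2 fell and 0 rose, and of the 8 thioredoxin and glutaredoxin genes 2 fell and 1 rose.

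Peroxidases outside the members moved in both directions, 3 of 5 falling and 1 rising. *Prdx4*, the peroxiredoxin of the endoplasmic reticulum, had 70.9 CPM in NGO and 12.3, 13.01, 12.7 and 11.4 CPM later, and was 6.20-fold lower in FGO than in NGO (95% interval 5.68 to 6.76). *Prdx6* fell 3.62-fold to 15.5 CPM between NGO and GO1 and had 26.8 CPM in FGO. *Gpx3*, the secreted glutathione peroxidase, fell from 131.8 to 49.8 CPM and rose again from 70.9 CPM in GO3 to 145.3 in FGO (2.05-fold). With either other scaling no gene of the list rose in this last step. *Ccs*, the copper chaperone that loads SOD1, fell 3.93-fold from NGO to GO1 (95% interval 3.54 to 4.37), a step in which *Sod1* itself was 1.36-fold lower.

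**Figure D4:**
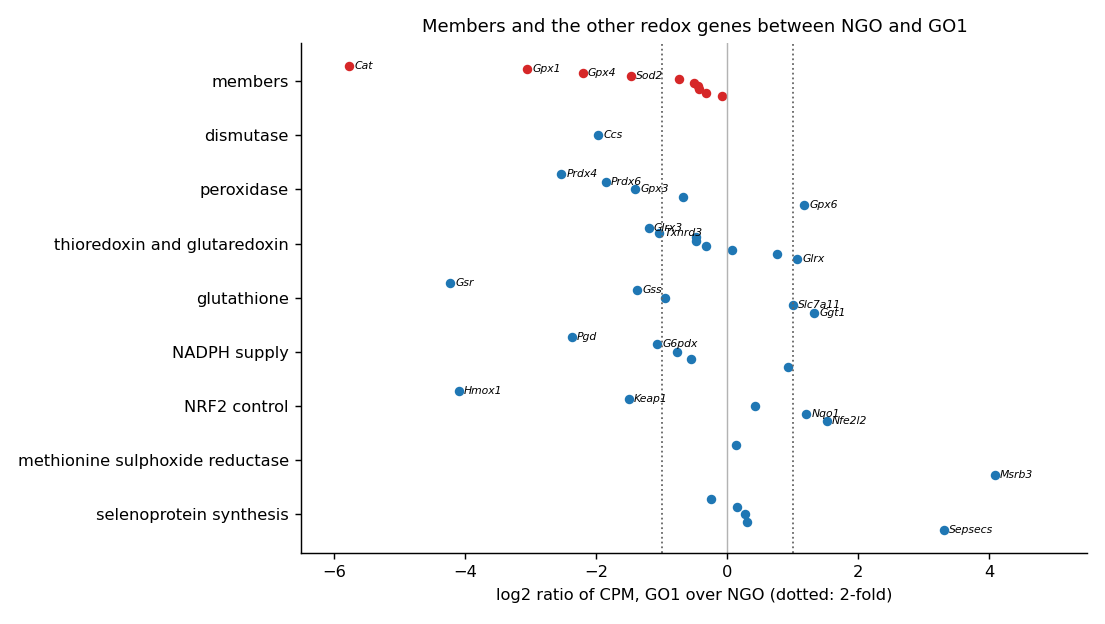
Log2 ratio of CPM, GO1 over NGO, for the members (red) and for the 50-gene redox list by group (blue), for genes that reached 10 CPM in either stage. Dotted lines mark 2-fold and genes beyond it are named; 12 listed genes lie to the left and 8 to the right, and the 4 called members are all on the left.

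In the group around the transcription factor NRF2 (*Nfe2l2*), which drives many antioxidant genes, 2 of the 5 genes at the level limit fell and 2 rose. *Nfe2l2* rose from 5.20 CPM in NGO to 14.9 in GO1 (2.87-fold, 95% interval 2.35 to 3.52) and fell from 15.8 in GO3 to 6.36 in FGO, while *Keap1*, the adaptor that marks NRF2 for degradation, fell from 25.4 to 8.97 CPM in the first step. *Hmox1*, haem oxygenase and a known NRF2 target, fell from 12.8 to 0.748 CPM, whereas *Nqo1*, another target, named here after its values were seen, rose 2.31-fold from 8.69 CPM (95% interval 1.97 to 2.71). *Msrb3*, a methionine sulphoxide reductase, rose from 0.675 to 11.4 CPM, on 17 and 306 UMIs, and was back below 10 CPM in GO2 (5.28). *Sepsecs*, which makes the selenocysteine carried by its tRNA, rose 9.91-fold from NGO to GO1 (95% interval 8.23 to 12.04), from 4.84 to 47.99 CPM, and fell from 28.1 CPM in GO3 to 9.30 in FGO. The other 4 genes of selenoprotein synthesis did not pass the rule in any comparison.

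After GO1 few genes of the list passed the rule, namely 1 of 30 from GO1 to GO2 (*Msrb3*, lower), 0 of 29 from GO2 to GO3 and 3 of 32 from GO3 to FGO. Of all genes, 3.54% fell and 2.41% rose in this last step. From NGO to FGO, 9 of 33 fell and 2 rose, where 16% and 11.3% of all genes did so. With size factors of DESeq2, 6 fell and 2 rose, and with TMM factors 4 fell and 3 rose, when 916 of all 7947 genes fell and 1206 rose.

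Promoters of all 10 members, 15 windows in RefSeq on GRCm38.p6 (250 bases before to 50 after a start site), were searched on both strands for TGACNNNGC, the core of the antioxidant response element that NRF2 binds. It occurred in 1 window each of *Prdx1*, *Txnrd1* and *Sod1*, that is in 3 of 15, and in 12.4% of all 32851 windows. None of the 4 members that fell from NGO to GO1 had the motif in its windows. Most genes lacked it too, since it was found in 3781 of all 27025 genes, so its absence does not set these 4 apart. A link between motif and fall was not tested. The 3 stretches with the motif are shown here. They are given 5′ to 3′ on the plus strand, on which the genes lie, with the match in capitals, and the motif reads on the opposite strand in each.
*Prdx1*, GRCm38.p6 chr4:116685456-116685485: cagggaaagcGCTGAGTCAtcccccgtagg
*Txnrd1*, GRCm38.p6 chr10:82859104-82859133: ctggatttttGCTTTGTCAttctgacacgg
*Sod1*, GRCm38.p6 chr16:90220696-90220725: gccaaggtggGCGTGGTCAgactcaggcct
TATAAA, the letters of the TATA box, was found in windows of *Prdx1*, *Sod1*, *Txn1* and *Prdx3* and in 13.6% of all windows. Its first base from the start site was -29 in *Prdx1*, -37 in *Sod1*, -160 in *Txn1* and, on the opposite strand, -239 in *Prdx3*. GTAAACA, a FOXO site, was in none of the members' windows and in 3.65% of all. Letters in a window say nothing on binding in these oocytes.

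**Figure D5:**
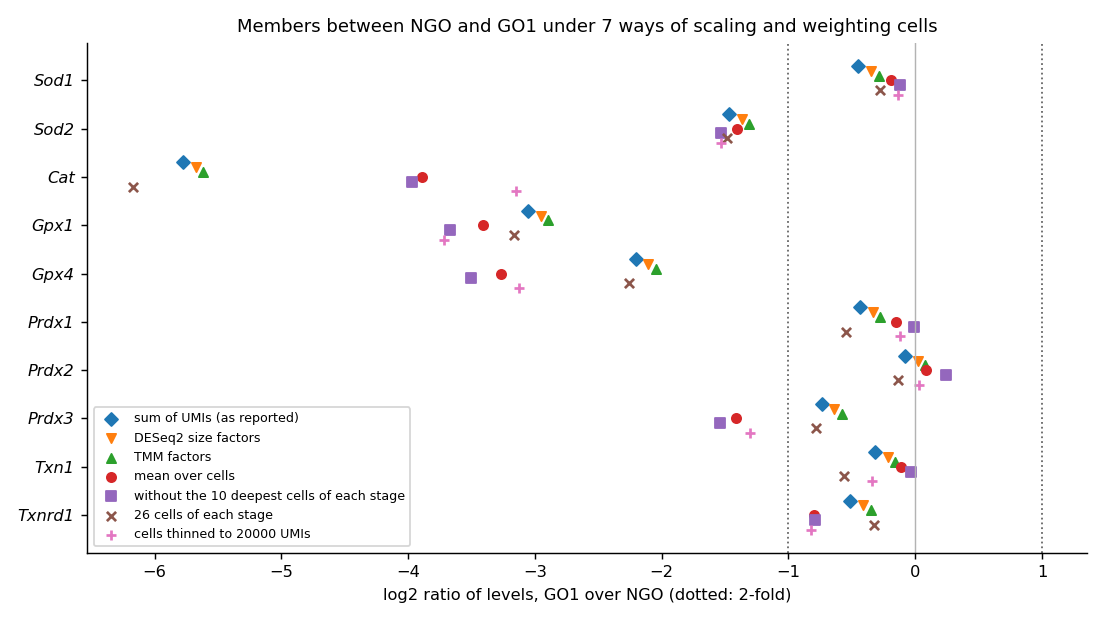
Log2 ratio of levels, GO1 over NGO, for each member under 7 ways of scaling the stages and weighting the cells. *Sod2*, *Gpx1* and *Gpx4* stay beyond 2-fold (dotted) in all 7, *Prdx3* crosses it in 3, and *Prdx2* lies on both sides of 0.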

How the data were processed

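Single mouse oocytes were measured by scRNA-seq in 4 libraries. The authors sorted reads by barcode, trimmed them, aligned them to the mm9 transcriptome with Tophat (v2.0.12), removed duplicates by UMI and deposited UMI counts per gene and cell, not normalized, for the cells passing their filters on genes, transcripts and spike-ins. How reads shared by gene copies were counted is not given in the sources used here. The libraries share barcode numbers, and nothing used here ties a cell to its library, so cells were grouped by the stage in their names. The chromatin and DNA methylation data were not used here.

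Counts were summed per stage and scaled to CPM. Sums carry exact Poisson intervals and ratios exact binomial intervals (95%). Where a stage had 0 UMIs, 3 UMIs were taken as its limit, and no ratio was formed where both stages were at or under it. Depths per cell ranged from 22279 to 3898137 UMIs. Doublets were not called, since oocytes were picked by hand. All members are named, as are the 12 genes of the redox list with the largest log2 ratios past the size rule in NGO to GO1 or NGO to FGO. Members, lists and rules were chosen with earlier results of these data known.

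Alternatives were DESeq2 1.42.0 size factors, edgeR 4.0.16 TMM factors (both for scaling only), the mean over cells, sums without the 10 deepest cells, 26 cells per stage, cells thinned to 20000 UMIs (no cell left out), limits of 1.5-fold and 50 CPM, no level limit and, added later, sums without cells with stroma genes. Positions are from GENCODE vM1 (NCBIM37) and promoters from RefSeq (GRCm38.p6). Python 3.11.15, pandas 2.3.3, numpy 2.4.6, scipy 1.17.1, matplotlib 3.10.9 and R 4.3.3 were used.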

Additional observations from a re-analysis of the deposited data

How the results depend on the processing

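Each stage was 1 pooled sample, so the spread between mice and libraries is not known. No paired analysis was possible because cells could not be tied to their libraries, and for the same reason no test was made. Values for GO1 and GO2 rest on few deep cells, and levels near 0.1 CPM on a few UMIs. The counts of called members from NGO to GO1 (4 in the sums) lay between 3 and 5 under every alternative, and those from NGO to FGO between 3 and 6. *Sod2*, *Gpx1* and *Gpx4* were called in both comparisons under all of them. *Cat* was not called in either with the 2 scalings, without the 10 deepest cells, in thinned cells or at 50 CPM. Other scalings shifted log2 ratios of all genes by 0.10 (DESeq2) and 0.16 (TMM) from NGO to GO1, 0.19 and 0.17 from GO1 to GO2, -0.15 and -0.09 from GO2 to GO3, and 0.08 and 0.17 from NGO to FGO. The share of calls that were higher moved from 44.5% to 50.1% (DESeq2) and 53.2% (TMM) from NGO to GO1, from 3.46% to 14.6% (DESeq2) from GO1 to GO2, from 76.8% to 59.2% (DESeq2) and 66.8% (TMM) from GO2 to GO3, and from 41.4% to 56.8% (TMM) from NGO to FGO. Over all genes, 231 were called from GO1 to GO2 in the sums, 96 with DESeq2 (1.54% of genes with TMM), 890 in 26 cells, 1214 as the mean over cells, 1278 without the 10 deepest cells, 1812 in thinned cells, 1082 at 1.5-fold, 35 at 50 CPM and 2252 with no level limit. From GO2 to GO3 it was 319 in the sums, 552 without the 10 deepest cells, 1204 in thinned cells, 987 at 1.5-fold, 66 at 50 CPM and 2562 with no level limit, and from GO3 to FGO 454 in the sums, 691 as the mean over cells, 1160 in thinned cells, 1386 at 1.5-fold, 3.38% of genes at 50 CPM and 3376 with no level limit. From NGO to GO1 it was 3951 in the sums, 1813 at 50 CPM and 8407 with no level limit, and from NGO to FGO 2222 in the sums, 4160 at 1.5-fold, 980 at 50 CPM and 5913 with no level limit.

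From GO3 to FGO the count of called members was 0 with DESeq2, TMM, the mean over cells, thinned cells and without the 10 deepest cells, and 2 at 1.5-fold (*Gpx1* and *Gpx4*) and with no level limit (*Cat* and *Gpx1*). Without the 10 deepest cells it was 1 from GO1 to GO2 and 1 from GO2 to GO3. Redox list genes called from NGO to GO1 were 9 at 50 CPM. From GO1 to GO2 they were 0 with DESeq2, TMM and at 50 CPM, 2 at 1.5-fold and with no level limit, 3 in 26 cells, 5 without the 10 deepest cells, 6 in thinned cells and 7 as the mean over cells. From GO2 to GO3 they were 1 as the mean over cells, without the 10 deepest cells and with no level limit, 2 at 1.5-fold and 3 in thinned cells. From GO3 to FGO they were 1 at 50 CPM, 5 without the 10 deepest cells, 6 in thinned cells, 8 at 1.5-fold and 9 with no level limit, and from NGO to FGO 5 at 50 CPM, 7 with TMM, 17 with no level limit and 18 at 1.5-fold. The summed members from NGO to FGO were 4623, 3398, 4003, 3776 and 3703 CPM with DESeq2, 4451, 3408, 3938, 3875 and 3799 with TMM, 5106, 4005, 3738, 3899.5 and 3947 as the mean over cells, and 5099, 4332, 3668, 3916 and 3904 without the 10 deepest cells. With 26 cells they were 4996 in NGO, 3289.9 in GO1, 3681 in GO3 and 3741 in FGO. The distance of *Sod1* and *Prdx3* was 0.18 in 26 cells, 0.49 as the mean over cells, 0.50 without the 10 deepest cells and 0.54 in thinned cells. Of the log2 ratios of members under alternatives, 209 moved beyond counting error, and none past the rule changed sign. The cause of these differences was not tested, except that fewer or more genes pass under other limits by construction.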

Other observations

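Genes of selenoproteins other than the members, a set chosen after the values of *Gpx1* and *Gpx4* were seen, were taken as genes of GENCODE vM1 with a TGA codon inside the reading frame and are given under their current RefSeq names. Of 20 such genes in the count table, 10 reached 10 CPM in NGO or GO1. From NGO to GO1, 4 of the 10 fell and 0 rose, with a median log2 ratio of -0.46, where 25.7% of all genes fell and 20.6% rose. Besides *Gpx3* and *Txnrd3*, these were *Selenoh*, which codes for a nuclear selenoprotein, from 306 to 72.1 CPM, and *Selenos*, which codes for a selenoprotein of the endoplasmic reticulum membrane, from 72.7 to 8.45 CPM. *Txnrd3* lay near the limit, at a log2 ratio of -1.03, and was short of it with size factors of DESeq2 or TMM factors of edgeR. *Selenos* rose from 5.53 CPM in GO2 to 25.8 in GO3, and to 69.5 in FGO. From GO3 to FGO, 2 of 10 rose (*Gpx3* and *Selenos*) and 0 fell, where 2.41% of all genes rose. With either other scaling *Gpx3* was short of the limit in this step. From NGO to FGO, 2 of 10 fell and 0 rose, with a median log2 ratio of 0.14, where 16% of all genes fell and 11.3% rose. *Selenow* had 623 CPM in NGO and 366 in GO1, less than 2-fold apart, and *Selenof* had 183 and 264 CPM. Each stage was 1 pooled sample here as well, and no test was made.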
